A study of Rattus norvegicus with 6 samples.

Results

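The genes described here encode the enzymes that tag, reduce or oxidise reactive small molecules: glutathione transferases, UDP-glucuronosyltransferases, sulfotransferases, aldo-keto reductases and aldehyde dehydrogenases. Members were taken by the start of their gene symbol (Gsta, Gstk, Gstm, Gsto, Gstp, Gsts, Gstt or Gstz, then Mgst, Ugt, Sult, Akr and Aldh followed by a digit). This gave 88 of the 15675 distinct symbols listed: 23 glutathione transferases, 16 UDP-glucuronosyltransferases, 13 sulfotransferases, 18 aldo-keto reductases and 18 aldehyde dehydrogenases. Of these, 63 had enough reads to be tested, among 12102 tested genes, and 25 did not.

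Conjugating enzymes attach a water-soluble group to a drug, hormone, bile pigment or oxidised lipid so that transporters can carry it out of the cell. Glutathione transferases add glutathione, UDP-glucuronosyltransferases add glucuronic acid from UDP-glucuronate, and sulfotransferases add sulfate from the donor PAPS. Aldo-keto reductases use NADPH to turn aldehydes and ketones into alcohols, and aldehyde dehydrogenases oxidise aldehydes to acids, a group of them making retinoic acid from retinal. They are best known from liver and gut but are also carried by the epithelia of ducts.

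The libraries came from pancreatic duct glands, small blind pouches on the pancreatic ducts, which were recognised by their morphology and cut out by laser microdissection from Sprague-Dawley rats. The control group was 3 libraries of genotype WT (WT26, WT1 and WT4). The compared group was 3 libraries of HIP rats, transgenic animals that express HIAPP (human islet amyloid polypeptide, the peptide that forms the islet deposits of type 2 diabetes) and are described as pre-diabetic (HIP30, HIP2 and HIP3). Where values of a gene are listed, they follow the order WT26, WT1, WT4 and HIP30, HIP2, HIP3. Both groups share the strain and the procedure, and no treatment is given. The sources used here do not give the promoter of the transgene, the age or sex of the rats, or whether each library is its own animal. P-values therefore speak only to the scatter among these 6 libraries, part or all of which could be technical.

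The 6 libraries held 15141136 to 17574682 reads on the listed genes. Values below are CPM (the reads of a gene relative to all reads of its library) scaled by TMM (a factor per library that evens out composition), and differences are HIP minus WT in log2 of CPM plus a pseudocount of 2 reads, which understates the change of low genes. Transcript lengths were not used, so levels are not compared between genes. The summed level of 11 measured duct epithelium markers, of 15 listed, was 10613 to 27115 CPM and highest in WT26. Insulin transcripts marked a pair of libraries: Ins1 stood at 7760 CPM in WT4 and 3717 in HIP3 against 0 in WT26, 69.0 in WT1, 0 in HIP30 and 102 in HIP2, so results are also given without WT4 and HIP3. In HIP30 and HIP2 the 12 dividing cell markers summed to 98.7 and 432 CPM against 1644 to 2682 in the other libraries, the 14 fibroblast and stellate cell markers to 531 and 949 against 1720 to 2621, and the 10 measured enterocyte markers to 718 and 846 against 1277 to 2720. The 16 markers of other islet endocrine cells summed to 747 and 492 in this pair against 82.5 to 444. Most of the sum in the pair came from Sst, at 246 and 172 CPM, and Ttr, at 248 and 134 CPM. Others of the list, such as Scg2 and Scg3, were highest in WT4 and HIP3, Scg2 at 106 and 68.3 CPM against 1.28 in HIP30 and 6.59 in HIP2. The 15 measured macrophage markers summed to 2590 and 2581 against 480 to 935, a gap carried by 1 gene, Mpeg1, at 1929 and 1945 CPM. Without Mpeg1 the other 14 summed to 661 in HIP30 and 635 in HIP2 against 480, 529, 750.4 and 569 in WT26, WT1, WT4 and HIP3. The part of these lists in the enzyme values was not tested. Of 14 hepatocyte markers listed 12 were measured, with a summed level of 259 to 458 CPM, to which Tf and Serpina1 gave most, while Alb, the albumin gene, stayed between 0 and 0.676 CPM. In such bulk samples, fewer cells of a type and less RNA per cell cannot be told apart.

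No enzyme differed between HIP and WT glands at an adjusted p under 0.05 (limma with Benjamini-Hochberg adjustment over all 12102 genes), and neither did any other gene, a share called of 0%. The lowest adjusted p of an enzyme was 0.691, and limma-voom called none as well. At an unadjusted limma p under 0.05, 7 of the 63 tested enzymes were higher in HIP, where 3.29% of all tested genes were, and 3 were lower, where 3.26% were. The 7 were Gsta4, Gstt3, Ugt2b15, Ugt1a5, Ugt1a3, Ugt2b1 and Sult1a1, and the 3 were Mgst3, Sult1b1 and Akr1b8. In 8 tested enzymes all HIP libraries stood above all WT libraries (12.7%, against 5.27% of all genes), and in 3 all stood below (4.76%, against 4.27%). When libraries were scaled by their totals alone, the counts were 5 (7.94%) and 3 (4.76%), against 6.14% and 3.86% of all genes. The lower ones were then Mgst3, Sult1b1 and Akr1b8, the last in place of Aldh3a1. Differences were above 0 for 34 of 63 enzymes, where 51.1% of all genes were, with a median of 0.034 against 0.010 for all genes.

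The glucuronosyltransferases had the highest median of tested members, 0.48, with 10 of 13 above 0. Sulfotransferases had the lowest, -1.40, over only 4 tested members. With all members of at least 1 read included, these medians were 0.13 and -0.47. Medians were 0.25 for 13 aldo-keto reductases, 0.023 for 18 glutathione transferases and -0.28 for 15 aldehyde dehydrogenases. These medians describe the families and carry no test.

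**Figure D1:**
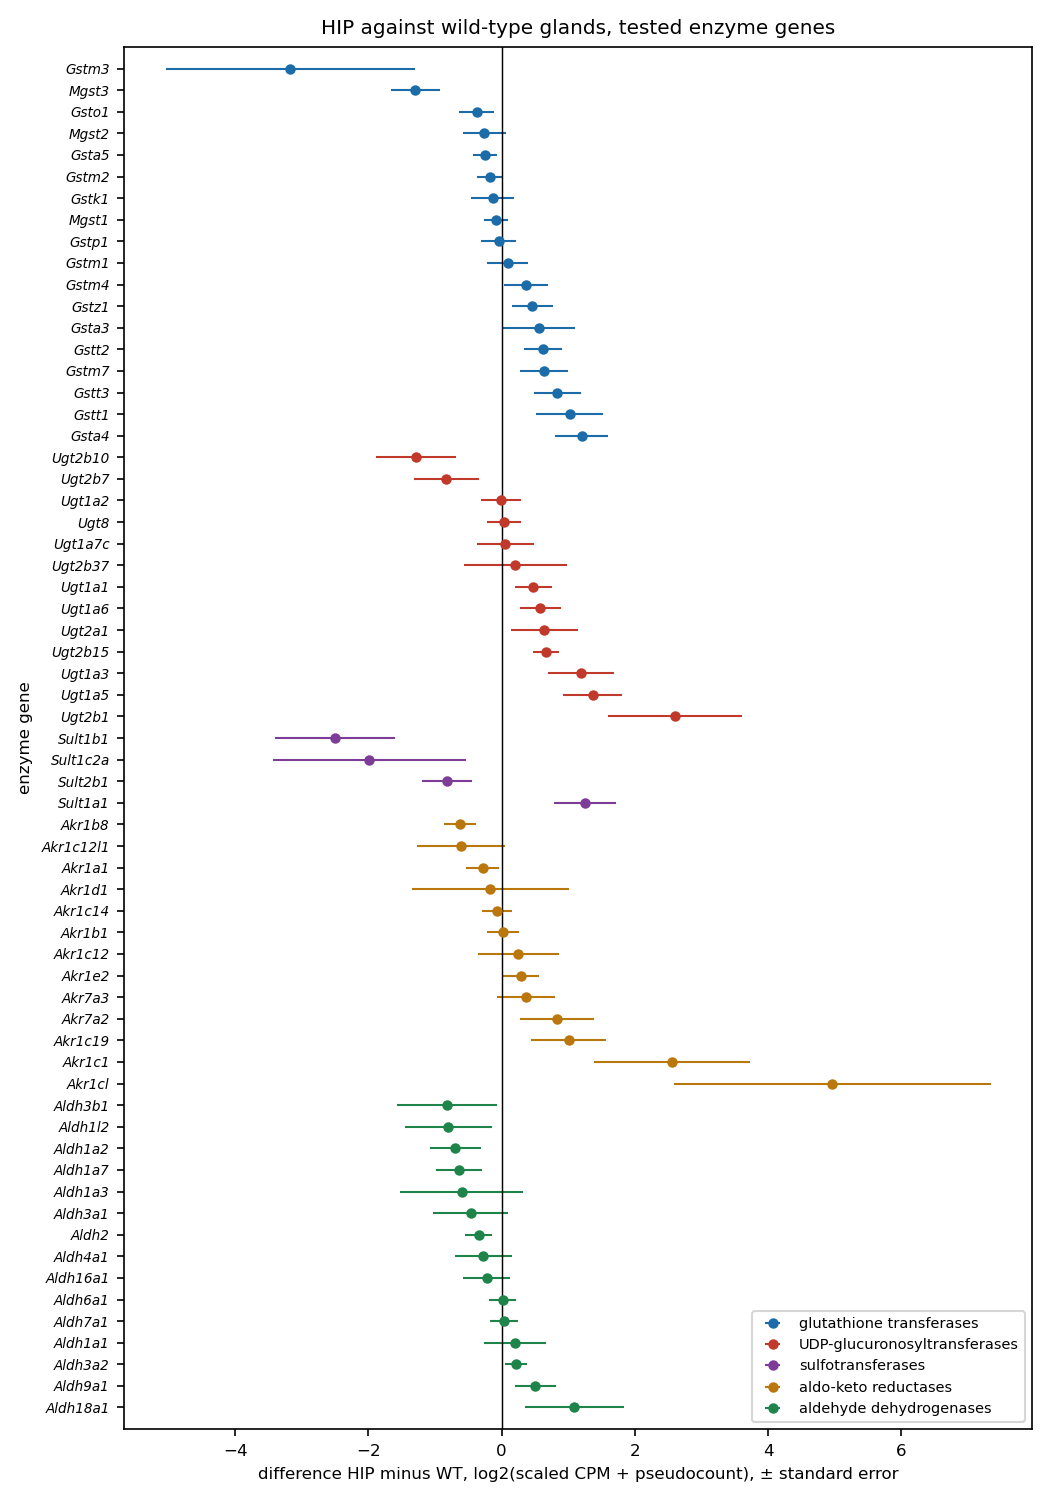
Each point is a tested enzyme placed on the horizontal axis by its log2 difference (HIP minus WT) with bars of 1 standard error, grouped by family. UDP-glucuronosyltransferases lie mostly to the right of 0, and Akr1cl at 4.97 and Gstm3 at -3.17 have the widest bars.

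Single libraries carried much of the spread. HIP30 was the highest library for 20 of 63 tested enzymes, where it was highest for 23.5% of all genes, and the lowest for 11, where it was lowest for 24.1%. WT26 was the lowest library for 21 enzymes, where it was lowest for 26.5% of all genes. For the glucuronosyltransferases, the median deviation from the WT mean (log2) was -0.47 in WT26, 0.27 in WT1 and 0.44 in WT4, against 0.54 in HIP30, 0.61 in HIP2 and 0.31 in HIP3. WT4 therefore stood above HIP3 on this median, and the low WT library was WT26. Aldo-keto reductases ran from 0.71 in HIP30 and 0.32 in HIP2 to -0.16 in HIP3, with the WT libraries between -0.22 and 0.35. HIP30 had a sulfotransferase median of -3.02 and HIP2 one of -1.04, while HIP3 stood at 0.19.

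**Figure D2:**
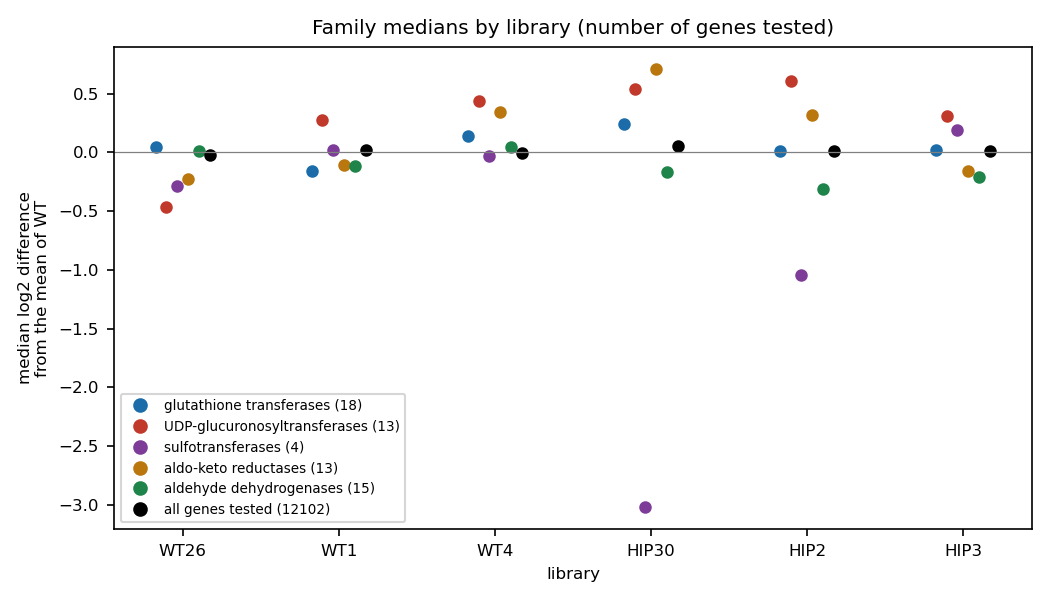
The vertical axis is the median log2 deviation from the WT mean over the tested members of each family, with the 6 libraries along the horizontal axis. The sulfotransferase point of HIP30 at -3.02 is the lowest, and the glucuronosyltransferase points of the 3 HIP libraries lie between 0.31 and 0.61.

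Glucuronidation clears bilirubin, steroids and phenols, and rats make many of its enzymes from the Ugt1a locus, where alternative first exons are joined to shared later exons. In the RefSeq annotation of GRCr8 the 6 Ugt1a genes listed here have 1 common end and separate starts on chromosome 9. Reads on the shared exons cannot be given to 1 of them, so their values are uncertain. The 250 bases before the start are shown for the 5 Ugt1a genes that have a RefSeq promoter entry, because the starts are where these genes differ. Capitals mark matches to GTTAAT on either strand, letters at the core of sites bound by HNF1 factors, which act in gut, liver, kidney and duct epithelium.

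Ugt1a7c (chr9:96187132-96187381, plus strand): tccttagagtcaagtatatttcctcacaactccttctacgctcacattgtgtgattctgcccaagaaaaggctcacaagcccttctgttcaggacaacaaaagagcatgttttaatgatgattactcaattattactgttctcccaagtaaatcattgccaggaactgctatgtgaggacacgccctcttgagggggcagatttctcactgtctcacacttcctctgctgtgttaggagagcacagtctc
Ugt1a6 (chr9:96194768-96195017, plus strand): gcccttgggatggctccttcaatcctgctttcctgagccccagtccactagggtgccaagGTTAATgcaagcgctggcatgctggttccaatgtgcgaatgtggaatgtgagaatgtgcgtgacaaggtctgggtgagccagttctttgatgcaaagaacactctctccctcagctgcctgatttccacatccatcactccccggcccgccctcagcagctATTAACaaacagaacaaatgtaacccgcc
Ugt1a3 (chr9:96227884-96228133, plus strand): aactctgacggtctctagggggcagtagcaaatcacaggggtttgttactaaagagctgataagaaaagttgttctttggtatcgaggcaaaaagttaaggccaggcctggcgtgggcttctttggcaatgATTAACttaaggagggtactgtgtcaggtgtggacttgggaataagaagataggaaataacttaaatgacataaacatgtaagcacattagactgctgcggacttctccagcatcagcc
Ugt1a2 (chr9:96238769-96239018, plus strand): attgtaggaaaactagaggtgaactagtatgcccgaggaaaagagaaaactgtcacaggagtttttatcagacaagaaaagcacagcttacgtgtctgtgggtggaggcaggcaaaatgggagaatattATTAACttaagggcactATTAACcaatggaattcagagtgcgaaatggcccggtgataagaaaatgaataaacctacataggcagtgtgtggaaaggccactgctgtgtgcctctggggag
Ugt1a1 (chr9:96248893-96249142, plus strand): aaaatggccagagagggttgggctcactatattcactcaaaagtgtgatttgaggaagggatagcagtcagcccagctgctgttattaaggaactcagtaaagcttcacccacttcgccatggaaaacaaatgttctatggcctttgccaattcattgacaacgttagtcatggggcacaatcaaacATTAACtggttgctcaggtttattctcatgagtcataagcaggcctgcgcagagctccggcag

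The motif was found in 4 of these 5 windows, in 10 of 71 enzymes with a window (14.1%) and in 6.45% of all 33469 windows of this length. In Ugt1a1 it begins 63 bases before the start, in Ugt1a3 119, in Ugt1a2 121 and 104, and in Ugt1a6 190 and 29. The letters GCGTG, the core bound by the aryl hydrocarbon receptor, were in 3 of the 5 windows, in 19 of 71 enzymes (26.8%) and in 25.9% of all windows. TGACNNNGC, the core of the antioxidant response element, was in 0 of the 5, in 7 of 71 enzymes (9.86%) and in 10.1% of all windows. Both were searched on both strands, and a match is a string of letters and not a bound site.

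Ugt1a5 stood at 6.20, 15.9 and 21.4 CPM in WT and 37.8, 34.3 and 28.5 in HIP. All 3 HIP libraries were above all WT libraries. The means were 14.5 ± 7.70 and 33.5 ± 4.71 CPM (SD, n = 3 each), a log2 difference of 1.37 (standard error 0.45) and an adjusted p of 0.691 (limma, Benjamini-Hochberg). Ugt1a3 held 3.46, 2.46 and 7.90 CPM in WT and 10.1, 10.4 and 8.03 in HIP. Its groups were separated only by the gap between WT4 and HIP3, which closes when libraries are scaled by their totals alone, with a log2 difference of 1.19 (standard error 0.49). Ugt1a6, which conjugates planar phenols, was at 50.4, 97.0 and 110.2 CPM in WT and 123, 144 and 101.1 in HIP. Its groups overlapped through WT4 and HIP3, and its difference was 0.58 (standard error 0.31). WT26 was low in all of them but Ugt1a3, where WT1 was lowest, and its value entered each of these differences: without WT26 they were 0.85 for Ugt1a5, 1.07 for Ugt1a3 and 0.23 for Ugt1a6. WT4 raised the WT mean of Ugt1a3, whose difference was 1.66 without it. Ugt1a1, the bilirubin enzyme, had 22.5, 33.3 and 32.0 CPM in WT and 49.0, 44.0 and 30.1 in HIP, with HIP3 below WT1 and WT4. Ugt1a2 (-0.008) and Ugt1a7c (0.056) had differences far inside their standard errors of 0.30 and 0.43. Genes of 1 locus thus spread from -0.008 to 1.37 in their differences, and whether they differ from each other was not tested.

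**Figure D3:**
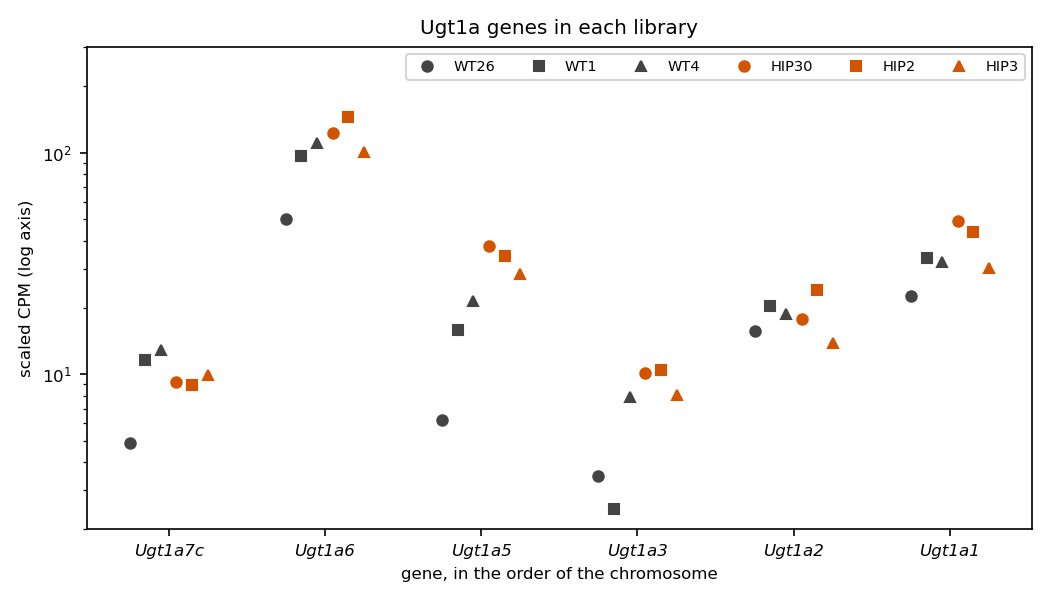
Scaled CPM on a log axis of the 6 Ugt1a genes in each library, grey for WT and orange for HIP, in the order of the chromosome. Ugt1a5 has its 3 HIP points, 28.5 to 37.8 CPM, above its 3 WT points, 6.20 to 21.4 CPM, whereas the points of Ugt1a2 and Ugt1a7c interleave.

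Members of the Ugt2 genes act mainly on steroids and bile acids. Ugt2b15 was read at 86.6, 112 and 120.2 CPM in WT and 184, 175 and 144 in HIP. Groups did not overlap, at 106 ± 17.5 against 168 ± 20.7 CPM (SD, n = 3 each), and the log2 difference of 0.66 had a standard error of 0.19. Leaving out any 1 library kept it between 0.52 and 0.76, the narrowest such range among the members with an unadjusted p under 0.05 in this family. Ugt2b1 had 0, 3 and 26 reads in WT and 44, 26 and 47 in HIP. WT4 and HIP2 held equal reads, so the separation of the groups rests on scaling, and the fitted difference of 2.61 (standard error 1.005) depends on the pseudocount. Ugt2a1 had 1.37, 3.01 and 3.28 CPM in WT and 3.53, 3.72 and 4.17 in HIP, with an unadjusted limma p of 0.24. Its difference was 0.64 and, without WT26, 0.26.

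The pattern of Ugt2b7 and its relative Ugt2b10 was the opposite in the same libraries. Ugt2b7, which conjugates steroids, was at 529, 1125 and 659.8 CPM in WT and 196, 481 and 743 in HIP. Ugt2b10 was at 15.8, 23.2 and 9.48 CPM in WT and 2.67, 6.84 and 12.6 in HIP. Both were lowest in HIP30 and overlapped through HIP3. Their differences were -0.83 (standard error 0.49) and -1.28 (standard error 0.60). Without HIP30 that of Ugt2b7 was -0.29, and that of Ugt2b10 was -0.70. The Ugt2b genes are close in sequence, and the sources used here do not say how reads common to several were treated. Ugt8, which builds galactolipids, is counted in this family by its symbol alone. It had a difference of 0.040, and Ugt2b37 had one of 0.21.

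Glutathione transferases detoxify electrophiles, and the theta and alpha classes also act on lipid peroxides and their breakdown products. Gsta4, which conjugates the lipid aldehyde 4-hydroxynonenal, stood at 6.02, 5.90 and 5.11 CPM in WT and 19.7, 13.5 and 8.58 in HIP. The WT libraries lay close together and all HIP libraries were above them. The means were 5.67 ± 0.496 and 13.9 ± 5.57 CPM (SD, n = 3 each), a log2 difference of 1.201 (standard error 0.39) and an adjusted p of 0.691 (limma, Benjamini-Hochberg). Gsta5, its neighbour on chromosome 8, held 87.6, 84.9 and 109 CPM in WT and 78.0, 84.9 and 73.6 in HIP, a difference of -0.24.

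The 3 tested theta genes had differences above 0, as Gsta4 did. Gstt3 stood at 140.2, 207 and 310.2 CPM in WT and 544, 358 and 263 in HIP. HIP3 lay inside the WT range. The means were 219 ± 85.7 and 389 ± 143 CPM (SD, n = 3 each), with a difference of 0.84 (standard error 0.35) that was 0.55 without WT26. Gstt2 had 32.1, 24.4 and 33.1 CPM in WT and 65.9, 41.7 and 34.4 in HIP. Its groups did not overlap, by a narrow gap between WT4 and HIP3 that is lost when libraries are scaled by their totals alone. Its difference was 0.62 (standard error 0.29, unadjusted limma p 0.064) and 0.36 without HIP30. Gstt1 had 11.1, 10.3 and 15.99 CPM in WT and 51.8, 24.4 and 12.3 in HIP, with HIP3 below WT4 and a difference of 1.02 (standard error 0.50) that was 0.505 without HIP30. Across these theta genes HIP30 was the highest and HIP3 the lowest of the HIP libraries. Gsta3 (39.5, 34.1 and 61.3 CPM in WT, 139.9, 68.1 and 27.9 in HIP) had the same order, with a difference of 0.56 that was 0.0061 without HIP30.

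In the mu class the groups overlapped for every tested member. Gstm1 was at 835, 1378 and 1551 CPM in WT and 1057, 1307 and 1557 in HIP. Its groups covered one another, and the difference of 0.090 turned to -0.18 without WT26, -0.054 without HIP3 and -0.031 within the libraries numbered 1 to 4. Gstm2 was at 346, 422 and 429.7 CPM in WT and 309.7, 344 and 409 in HIP, a difference of -0.17 (standard error 0.19). Gstm3 had 34.3, 54.6 and 27.2 CPM in WT and 0, 12.4 and 46.3 in HIP. No read was found in HIP30, where a count of 0 allows up to 0.182 CPM, while HIP3 stood inside the WT range. Its difference of -3.17 had a standard error of 1.87, and it was -0.62 without HIP30. Gstm1, Gstm2, Gstm3 and Gstm4 lie side by side on the genome and are close in sequence, so reads may be shared among them. Gstp1 (-0.045), Gstk1 (-0.13), Gstz1 (0.46), Gstm4 (0.36), Gstm7 (0.64) and Gsto1 (-0.37) had overlapping groups.

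The 3 membrane-bound Mgst enzymes all had differences below 0. Mgst3, a peroxidase that also conjugates leukotriene A4, stood at 42.0, 42.9 and 20.9 CPM in WT and 11.7, 11.4 and 18.8 in HIP. Every HIP library was below every WT library, though WT4 and HIP3 nearly met. The means of 35.2 ± 12.5 and 13.97 ± 4.20 CPM (SD, n = 3 each) gave a log2 difference of -1.29 (standard error 0.37). Its unadjusted limma p of 0.00794 was the lowest of all enzymes, and the adjusted p was 0.691 (Benjamini-Hochberg). Leaving out any 1 library kept the difference between -1.63 and -1.12. Mgst2 (-0.26) and Mgst1 (-0.081) overlapped between groups, and their differences were above 0 without WT26 (0.087) and without HIP2 (0.033), respectively. Gsto2, which reduces dehydroascorbate, was not tested for want of reads: it had 22, 9 and 20 reads in WT and 6, 5 and 3 in HIP, the groups not overlapping.

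**Figure D4:**
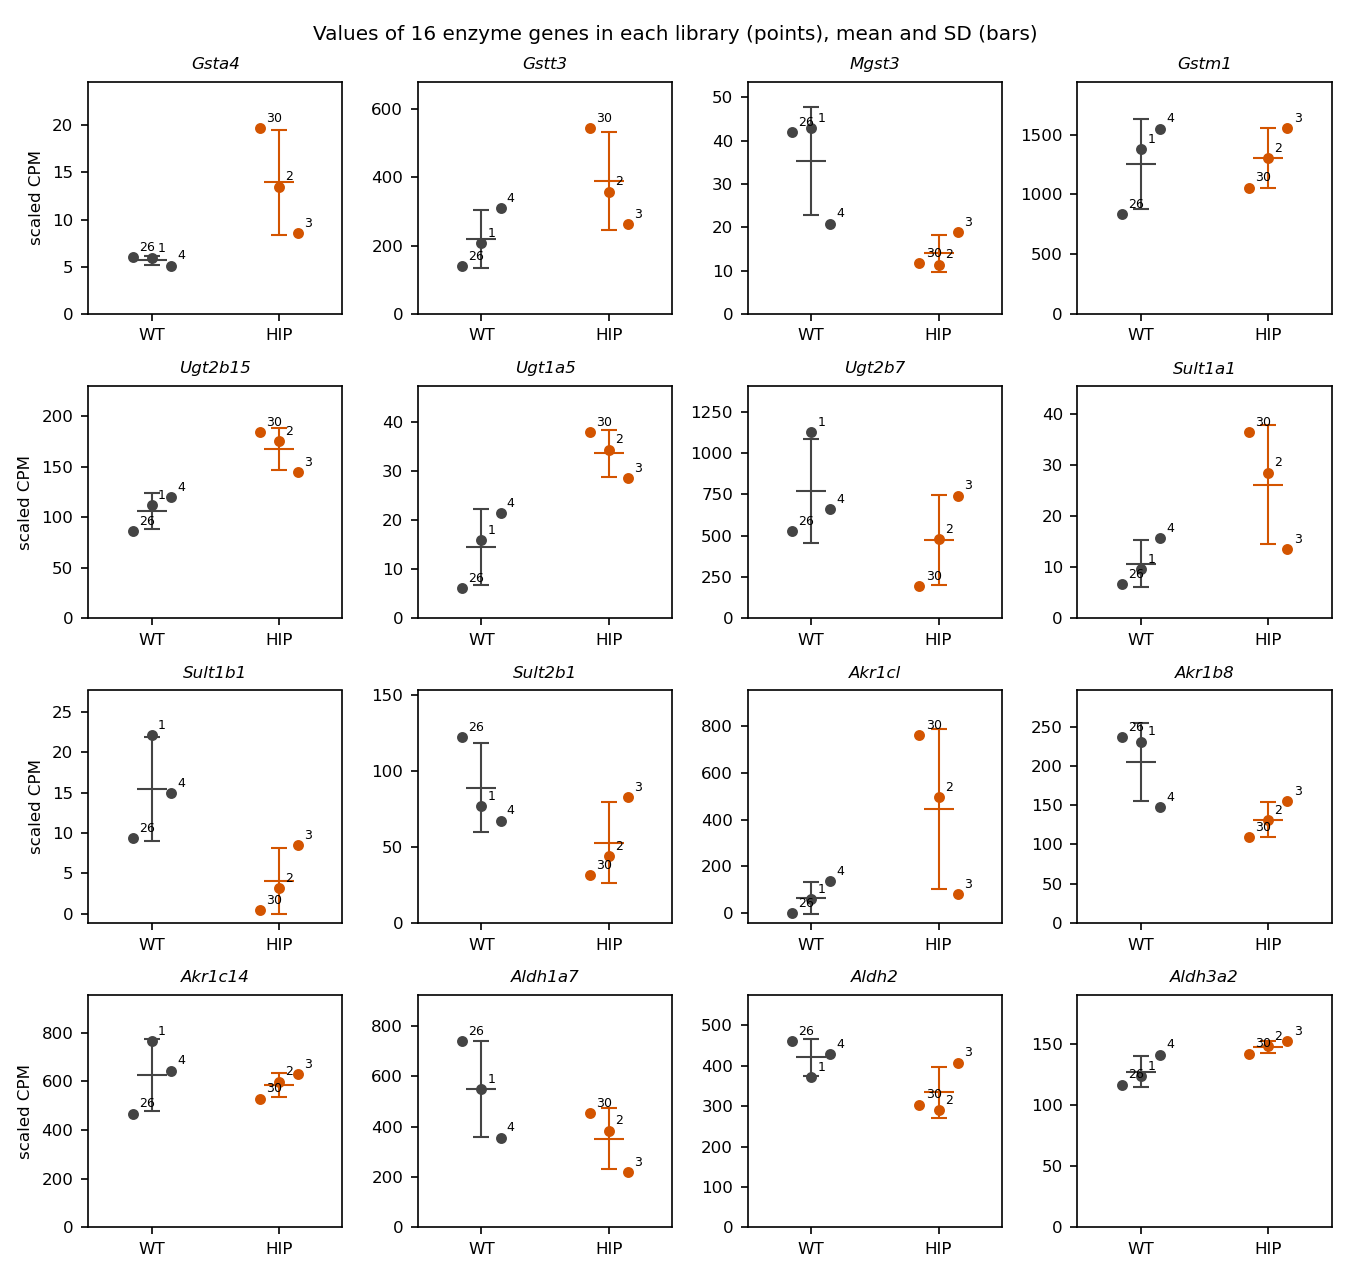
Scaled CPM (vertical axis) of 16 enzymes in each library, the points carrying the library numbers and the bars giving mean and SD of each group. Gsta4, Ugt2b15 and Ugt1a5 have all HIP points above WT, Mgst3 and Sult1b1 have them below, and in Gstt3, Sult1a1 and Akr1cl the HIP3 point lies among the WT points.

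Sulfotransferases inactivate phenols, steroids and thyroid hormone. Only 4 of 13 were tested. Sult1b1, a thyroid hormone and phenol sulfotransferase, stood at 9.36, 22.1 and 14.9 CPM in WT and 0.486, 3.17 and 8.52 in HIP. No HIP library reached the WT range, and HIP30 was lowest with 8 reads. The means were 15.5 ± 6.39 and 4.06 ± 4.09 CPM (SD, n = 3 each), with a difference of -2.50 (standard error 0.90) that was -1.45 without HIP30. Sult1b1 is a neighbour of Ugt2a1 on the genome, whose difference was 0.64. Sult1a1, the phenol sulfotransferase, went the other way, with 6.68, 9.58 and 15.7 CPM in WT and 36.3, 28.5 and 13.5 in HIP. HIP3 lay inside the WT range, and the difference was 1.26 (standard error 0.47). Sult2b1, which sulfates cholesterol, was at 123, 77.1 and 67.5 CPM in WT and 31.5, 44.0 and 82.8 in HIP, a difference of -0.82 (standard error 0.38) with HIP3 above WT4 and WT1. Without HIP30 it was -0.51. Sult1c2a (6.38, 6.82 and 5.96 CPM in WT, 0, 2.87 and 12.1 in HIP) ranged more widely among HIP libraries than between the group means, and its difference of -1.98 was -0.10 without HIP30.

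Aldo-keto reductases handle sugar, lipid and steroid carbonyls. Akr1b8, which reduces lipid aldehydes, stood at 237, 231 and 147 CPM in WT and 109.5, 131 and 155 in HIP. WT4 lay below HIP3, so the groups overlapped, though they did not when libraries were scaled by their totals alone. The means were 205 ± 50.2 and 132 ± 22.6 CPM (SD, n = 3 each), with a difference of -0.62 (standard error 0.24). Its relative Akr1b1, aldose reductase, had a difference of 0.020 with groups at 25.8 ± 3.60 and 26.2 ± 4.07 CPM (SD, n = 3 each).

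The largest difference of any enzyme was that of Akr1cl, a symbol that RefSeq lists as a synonym of Akr1c15. It was at 0, 60.5 and 137 CPM in WT and 762, 495 and 82.0 in HIP. HIP3 stood below WT4, and the 0 of WT26 allows up to 0.179 CPM. The difference of 4.97 had a standard error of 2.38 and was 1.78 without WT26. Akr1c1 (0, 0.0614 and 0.912 CPM in WT, 5.11, 1.71 and 0.368 in HIP) and Akr1c19 (12.0, 9.09 and 25.5 in WT, 54.0, 31.6 and 13.5 in HIP) had the same order of HIP libraries. Akr7a2, an aflatoxin aldehyde reductase, was at 53.7, 38.9 and 73.8 CPM in WT and 215, 102 and 39.6 in HIP, and its difference of 0.83 was 0.25 without HIP30. Akr1c14, a hydroxysteroid dehydrogenase, held 468, 764 and 645 CPM in WT and 529, 599 and 628 in HIP. Its difference of -0.071 was small beside its standard error of 0.23. Akr1a1, the general aldehyde reductase, was at 411, 271 and 248 CPM in WT and 306, 199 and 251 in HIP, a difference of -0.29 that was -0.064 without WT26.

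Aldehyde dehydrogenases had the narrowest span of differences of the 5 families, from -0.82 to 1.09. Aldh3a2, which oxidises fatty aldehydes, stood at 117, 124 and 142 CPM in WT and 142, 148 and 152 in HIP. The groups just failed to overlap, with a difference of 0.22 (standard error 0.16, unadjusted limma p 0.212). Aldh3a1, a crystallin-like enzyme of the cornea, had 25, 22 and 26 reads in WT and 21, 19 and 12 in HIP, a difference of -0.47 (standard error 0.57) that was -0.26 without HIP3. Its groups overlapped under library totals alone. Aldh2, the mitochondrial enzyme that clears acetaldehyde, was at 459.6, 372 and 429 CPM in WT and 303, 290.4 and 407 in HIP, a difference of -0.34 (standard error 0.20). Aldh1a7 was at 738, 549 and 356 CPM in WT and 453, 385 and 219.9 in HIP, with HIP30 and HIP2 inside the WT range and HIP3 below it, and its difference was -0.64 (standard error 0.35). It was -0.34 without HIP3 and -0.39 without WT26. Of the retinal dehydrogenases, Aldh1a1 was at 69.3, 61.7 and 84.5 CPM in WT and 155, 94.7 and 37.1 in HIP, a difference of 0.20 that was -0.26 without HIP30, and Aldh1a2 (-0.69) and Aldh1a3 (-0.60) had differences below 0 with overlapping groups, that of Aldh1a3 being 0.19 without HIP30. Aldh3b1 and Aldh18a1 were the ends of that span. Aldh3b1 held 6.97, 1.41 and 4.26 CPM in WT and 3.10, 2.63 and 0.858 in HIP (standard error 0.74), and its difference was -1.45 without WT1 and -0.29 without HIP3. Aldh18a1, which makes a proline precursor, held 6, 7 and 23 reads in WT and 15, 42 and 21 in HIP (standard error 0.75, and 0.71 without HIP2). Both had overlapping groups. Aldh6a1 (0.020) and Aldh7a1 (0.034) hardly differed from 0.

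**Figure D5:**
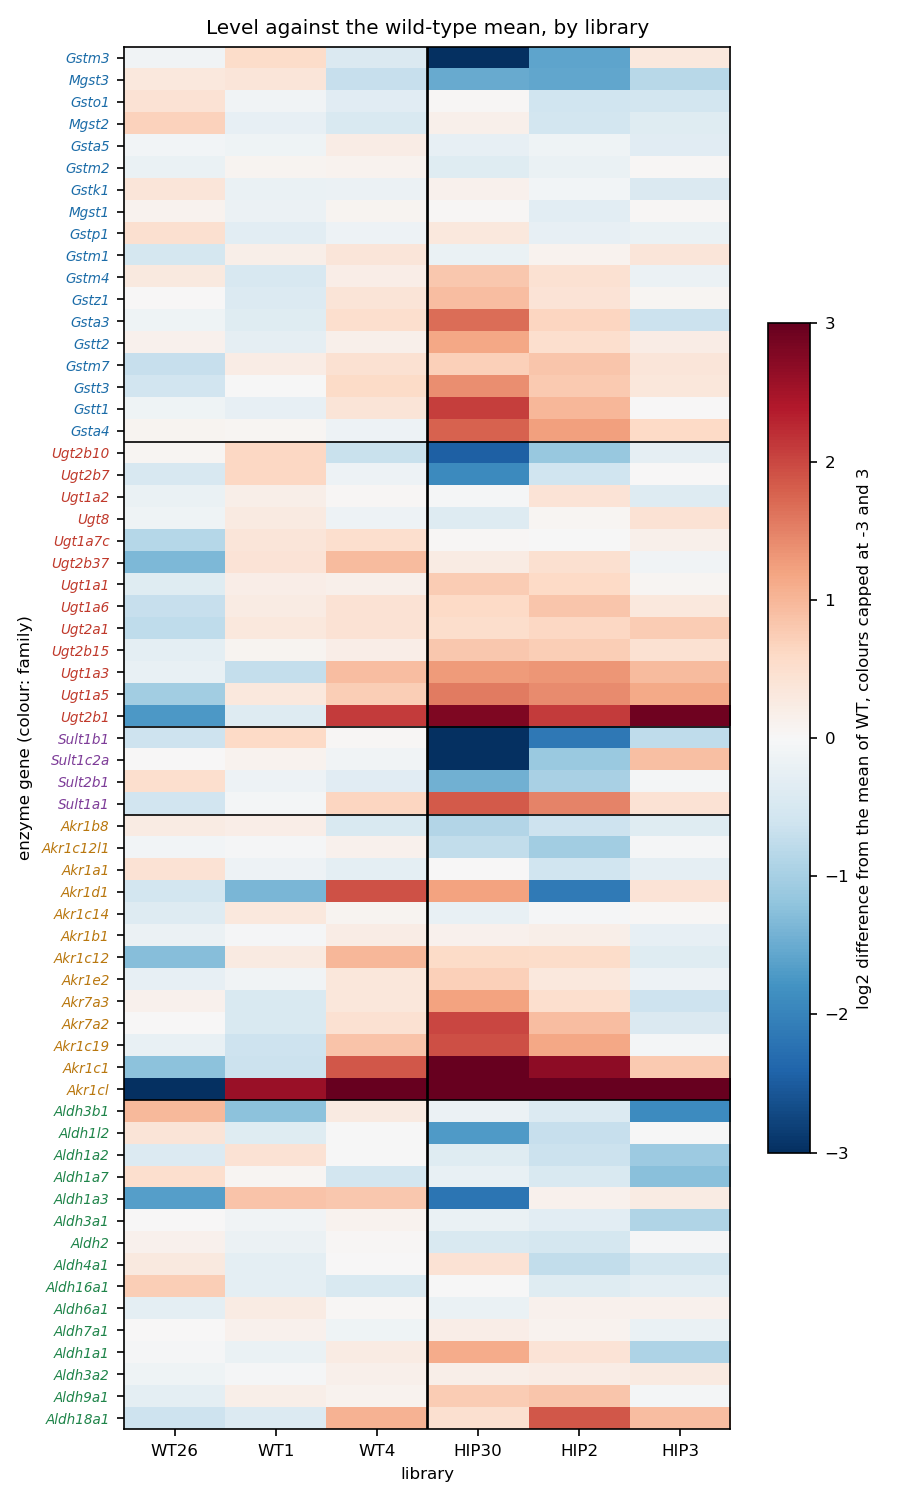
Colour gives the log2 deviation of each tested enzyme from its WT mean in each library, with the enzymes grouped by family. Colours stop at -3 and 3. Akr1cl shows the low WT26 value of 0 CPM, and HIP30 holds the darkest blue for Gstm3, Sult1b1 and Sult1c2a.

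Without WT4 and HIP3, the comparison of HIP30 and HIP2 with WT26 and WT1 had 22 enzymes higher at an unadjusted limma p under 0.05, where 10.9% of all tested genes were, and 7 lower, where 10.6% were. This comparison was added after the data were seen and leaves 2 libraries in each group. The lowest adjusted p (limma, Benjamini-Hochberg) was 0.0784, shared by Mgst3 (-1.87), Sult1a1 (1.99), Akr1c19 (1.97) and Akr1c1 (4.37, a value that depends on the pseudocount since WT26 and WT1 held 0 and 1 reads), so none passed 0.05. Gstt1 and Akr7a2 had differences of 1.72 and 1.70 there against 1.02 and 0.83 with all libraries. The pair HIP30 and HIP2 is also the pair with the low dividing cell, fibroblast and enterocyte marker sums given above. Its low enterocyte sums lay mostly in Cdh17, and its high other islet endocrine sums came mostly from Sst and Ttr.

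Of the 25 untested enzymes, 21 lacked a read in at least 1 library, and no value exceeded 146 reads. WT4 was the highest library for 14 of them, and 9 had 10 or more reads in WT4 but fewer in WT26 and WT1. Over all listed genes, 672 lacked a read in WT4 against 1837 to 2822 in the other libraries. The counts of 14 and 9 were not made over all untested genes, so whether they are particular to enzymes was not tested. Akr1c2 had 146 reads in WT4 and 105 in HIP3 but 0, 1, 0 and 9 in WT26, WT1, HIP30 and HIP2. Sult2a1 and Sult2a6, hydroxysteroid sulfotransferases, had 23 and 16 reads in WT4 and 0 elsewhere. WT4 and HIP3 are the libraries with the high Ins1 values given above. The 14 measured acinar cell markers also summed to 92.2 CPM in WT4 and 133 in HIP3, against 27.9 to 41.7 in the other libraries. The part of either in the extra reads was not tested.

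The supply of substrates and the removal of products were read from lists of other genes. Over all tested genes, 3.29% were higher and 3.26% lower at an unadjusted limma p under 0.05, and 51.1% had differences above 0. Counts per list, each of few genes, carry no test. Of 15 tested genes for glutathione supply, 12 had differences below 0, with a median of -0.41, and 1 was higher and 1 lower at an unadjusted p under 0.05. The higher one was Slc7a11, the cystine importer, at 3.76, 5.10 and 7.90 CPM in WT and 23.6, 26.6 and 10.4 in HIP. All HIP libraries were above WT, with a difference of 1.78 (standard error 0.47). The lower one was Gclc, the catalytic subunit that limits glutathione synthesis, at 171, 208 and 180.2 CPM in WT and 108, 147 and 131 in HIP (-0.54, standard error 0.18). Of 18 genes of NRF2 and its targets, 8 were above and 10 below 0, and only Nqo1, a quinone reductase, had a p under 0.05. It was at 273, 161 and 261 CPM in WT and 169, 141 and 112 in HIP, a difference of -0.70 with HIP30 above WT1.

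Among 11 tested genes for donor supply of UDP-glucuronate and PAPS, 7 were below 0. Papss1, which makes PAPS, stood at 512, 512 and 352 CPM in WT and 283, 337 and 347 in HIP, all HIP libraries below WT, with a difference of -0.49. Of 8 exporters, 6 were below 0. Among these 6, Abcc3, an exporter of glucuronides, was at 578, 491 and 399.8 CPM in WT and 328, 350.1 and 372 in HIP (-0.47). Abcg2, an efflux pump for sulfate conjugates, was above 0, at 1.61, 5.10 and 8.997 CPM in WT and 14.9, 18.9 and 9.62 in HIP (1.69). The 12 xenobiotic sensing receptors had no p under 0.05, 6 being above and 6 below 0, and Hnf4a had the lowest p (difference -0.38). The 16 retinoic acid pathway genes had none either, 9 being above and 7 below 0, with Rara, a retinoic acid receptor, at 0.57. Of 9 genes for sorbitol and methylglyoxal handling, a list that also holds alcohol dehydrogenases, 2 were lower at an unadjusted p under 0.05. Sord, sorbitol dehydrogenase, stood at 89.4, 56.2 and 68.5 CPM in WT and 49.2, 43.3 and 46.7 in HIP (-0.60). Adh7, an alcohol dehydrogenase that also oxidises retinol, was at 21.6, 22.9 and 21.4 CPM in WT and 3.65, 7.51 and 21.7 in HIP (-1.37), with HIP3 inside the WT range. Deconjugating enzymes had 1 lower of 9, Arsg (-1.35), and the other conjugating enzymes had 1 higher and 1 lower of 8, As3mt (0.65) being the one with the lowest p. None of these genes had an adjusted p under 0.05 (limma, Benjamini-Hochberg).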

How the data were processed

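RNA of laser-captured duct glands was sequenced in 6 libraries, 3 per genotype. Per the labels' protocols, RNA came from a PicoPure kit and libraries from a Nugen ultra low mass kit. STAR, HTSeq, edgeR, limma and build rn5 are named, per the submitters' processing notes. The sources used here give no versions, order or strandedness. Per gene and library, the authors deposited log2 values, which were found from the files to be CPM with a prior of 0.25 reads. From them whole reads were recovered for 100% of entries within 0.1 reads. They were rescaled with TMM (trims of 30% and 5%, factors 0.933 to 1.09).

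Testing required at least 0.61 CPM (10 reads of a median library) in 3 libraries and a sum of 15 reads, and 4 entries with repeated symbols were left out. log2 of CPM plus 2 reads (0.121 CPM) was fitted by limma 3.58.1 (R 4.3.3, trended prior variance) over all 12102 genes and adjusted by Benjamini-Hochberg at 0.05. Steps were tested on simulated data. Figures used matplotlib 3.10.9. A count of 0 was given a limit of 3 reads, which covers counting error alone.

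Members and gene lists were chosen with earlier results of these data known. Enzymes were given for every library by this rule: an unadjusted p under 0.05, groups that do not overlap with a mean of 1 CPM or more in the higher group, the 3 highest mean levels in a family, or its largest and smallest difference. Other enzymes given by name, such as Gstt1, Gsta3, Gsta5, Akr7a2, Ugt1a1, Akr1c1, Akr1c2, Akr1c19, Sult1c2a, Sult2a1 and Aldh1a1, and Gclc, Abcc3, Adh7 and Mpeg1, were chosen after their values were seen. Of 88 symbols, 85 matched a current RefSeq symbol of GRCr8, 2 a synonym and 1 none, and 71 had a promoter window.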

Additional observations from a re-analysis of the deposited data

How the results depend on the processing

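Under no setting did an enzyme reach an adjusted limma p of 0.05 (Benjamini-Hochberg), the lowest being 0.0784 without WT4 and HIP3, 0.149 without HIP3 and 0.157 for limma-voom with sample weights. Of the 63 tested enzymes, 23 changed sign under at least 1 setting, among them Aldh1a1, Mgst2 and Ugt1a2. For the 28 picked by the naming rule, 333 of 336 values under other settings kept their sign. The exceptions were Akr1c14, at 0.0031 with library totals alone and 0.18 for HIP30 against WT26, and Gstm1, at -0.031 within the libraries whose names carry the numbers 1 to 4 (WT1, WT4, HIP2 and HIP3). Of 168 values of these 28 with 1 library left out, 4 changed sign, those of Akr1c14 running from -0.27 to 0.080 and those of Gstm1 from -0.18 to 0.27. Enzymes higher at an unadjusted p under 0.05, 7 with all libraries, numbered 19 under voom with sample weights (9.22% of all genes), 1 within the libraries numbered 1 to 4 (0.479%) and 22 without WT4 and HIP3 (10.9%). They numbered 2 to 15 with 1 library left out: 2 without HIP30 (0.983% of all genes) or HIP2 (0.686%), 3 without WT26 (1.38%) or WT1 (1.52%), 11 without WT4 (7.78%) and 15 without HIP3 (5.98%). Enzymes lower, 3 with all libraries, numbered 8 under voom with sample weights (10.5% of all genes), 5 with a term for the number series (26 and 30 against 1 to 4; 4.25%), 7 without WT4 and HIP3 (10.6%), 1 without WT1 (1.19%) and 9 without HIP3 (8.92%).

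Family medians with 1 library left out ran from -0.38 to -0.13 for aldehyde dehydrogenases, -0.064 to 0.54 for aldo-keto reductases, -0.036 to 0.14 for glutathione transferases, -2.30 to -0.30 for sulfotransferases and 0.23 to 0.68 for UDP-glucuronosyltransferases. The aldehyde dehydrogenase median was -0.17 under voom with sample weights, 0.059 for HIP30 against WT26, which has no replicate, and -0.15 without WT4 and HIP3. In HIP30 against WT26 aldo-keto reductases stood at 1.08, sulfotransferases at -2.96 and UDP-glucuronosyltransferases at 1.12. The aldo-keto median was 0.69 without WT4 and HIP3, and the sulfotransferase median was -0.18 within the libraries numbered 1 to 4. The cause of these shifts was not tested. No paired analysis was possible because the groups share no replicate number. With 3 libraries in each group, differences near their standard error could not be told from the spread.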
